A study of Mus musculus with 2 samples.

Results

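Heart B cells were picked from droplet single-cell RNA sequencing of mouse hearts. A deposited cell was called a B cell when it held at least 3 unique molecular identifiers (UMIs, each a counted RNA molecule) summed over Cd79a, Cd79b and Ms4a1. It also had to have no UMI of Cd3e, Cd3d or Cd3g, at most 1 of C1qa, C1qb and C1qc, at most 3 of Dcn, Col1a1 and Col3a1, none of Pecam1 or Cdh5, and at most 10% of its UMIs from mitochondrially encoded genes. The rule found 397 of 4867 cells in the AC8 library and 228 of 5800 cells in the wild-type (WT) library, 625 of 10667 in all. Every deposited cell had at least 500 UMIs, and members under 1000 UMIs are given apart from those with 1000 or more. The rule used the measured counts of these genes, so their levels are described here and support nothing.

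The AC8 library came from mice that overexpress adenylyl cyclase type 8, which turns ATP into the signal molecule cyclic AMP, and the WT library from littermate controls. Both were C57/B6 mice without treatment, and the series title places the overexpression in cardiomyocytes, which were not among the sorted cells. Cardiac cells of pooled mice were split by their CD45 and CD31 surface staining into leukocytes (CD45+CD31-), mesenchymal cells (CD45-CD31-) and endothelial cells (CD45-CD31+), and equal numbers were mixed into 1 library per genotype. The number, age and sex of the mice are not given in the sources used here. With 1 library per genotype there was no replicate and no test, so genotype, pool, sort and library preparation cannot be told apart. Intervals are at 95% and cover counting error only. They are exact, except the approximate ones of share differences. No UMI of Adcy8 was found in the B cells of either library, which allows up to 6.66 counts per 1000000 UMIs (CPM) in AC8 and 13.5 CPM in WT. Over all cells the gene had 1 UMI in AC8 and 0 in WT, so it did not check the labels.

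B cells are lymphocytes that carry an antibody as a surface receptor. Each cell joins 1 heavy chain V segment and 1 light chain V segment, kappa or lambda, to constant regions, and signals through the Cd79a and Cd79b chains. B cells also take up antigen and show its peptides to helper T cells on MHC class II molecules, whose genes are switched on by the coactivator Ciita. In the mouse heart, B cells are known mostly as naive cells of the circulation that linger in the small vessels of the myocardium.

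The results on antigen presentation turn on the MHC class II genes, whose promoters are known to share an X box and a Y box, the elements on which Ciita acts. Below are 4 promoters from RefSeq on GRCm38.p6, each the 150 bases before the gene's start, 5′ to 3′ on the gene's strand. They show the spacing of these elements in 3 genes of the family and a diverging case, H2-Aa. Capitals mark the Y box core TGATTGG and the X box core AGCAAC followed by any 2 bases and ATG, both searched on both strands, and they do not overlap each other.
H2-Eb1, chr17:34305717-34305866, plus strand: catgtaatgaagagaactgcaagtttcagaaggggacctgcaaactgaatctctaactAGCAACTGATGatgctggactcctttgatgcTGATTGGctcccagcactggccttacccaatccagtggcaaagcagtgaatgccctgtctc
H2-Eb2, chr17:34325525-34325674, plus strand: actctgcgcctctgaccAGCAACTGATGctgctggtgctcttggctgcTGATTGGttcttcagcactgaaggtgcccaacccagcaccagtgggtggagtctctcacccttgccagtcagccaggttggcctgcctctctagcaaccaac
H2-Ob, chr17:34238755-34238904, plus strand: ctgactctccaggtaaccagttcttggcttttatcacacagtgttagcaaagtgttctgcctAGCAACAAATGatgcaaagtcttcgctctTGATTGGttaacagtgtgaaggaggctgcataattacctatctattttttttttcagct
H2-Aa, chr17:34287824-34287973, minus strand: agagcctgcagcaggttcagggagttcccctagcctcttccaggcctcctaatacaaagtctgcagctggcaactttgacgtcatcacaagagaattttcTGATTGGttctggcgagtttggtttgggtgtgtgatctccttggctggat

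Counted back from the start, the first base of the Y box core lay at -61 in H2-Eb1, -102 in H2-Eb2, -59 in H2-Ob and -50 in H2-Aa. The X box core began at -92, -133 and -88 in H2-Eb1, H2-Eb2 and H2-Ob. Of the 9 H2- genes among the class II genes, 8 matched an entry, and 7 of these held the Y core and 3 both cores. Over all 32851 promoters of the same length, 1877 (5.71%) held the Y core, 36 (0.110%) the X core and 5 (0.0152%) both. A match is a description of letters, and no binding was measured.

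The label held against genes that the rule did not use. All 15 genes of a B cell marker list that are not in the rule were detected in both libraries. Summed, they made 8982 CPM in AC8 B cells and 8662 CPM in WT B cells, against 503 and 450 CPM in all other cells of the same libraries, and every member had at least 1 UMI of them. Ly6d, a surface protein of the lymphoid lineage, had 2435 CPM in AC8 and 2162 CPM in WT, and Fcmr, the Fc receptor for IgM, had 666 CPM in AC8 and 682 CPM in WT. Thinned to 500 UMIs per cell, Ly6d was detected in 62.2% (57.2 to 67.0) of AC8 B cells and 52.6% (45.9 to 59.3) of WT B cells. In fibroblasts, which should lack it, the shares were 0.549% and 0.0510%. The rule genes themselves stood at 3641 CPM in AC8 and 4109 CPM in WT for Cd79a, 1164 and 1077 CPM for Cd79b, and 829 and 879 CPM for Ms4a1. Ptprc, which encodes CD45, had 404 CPM in AC8 and 502 CPM in WT.

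Markers of other cells are given without the genes that the rule set to 0 or capped. Of the other 10 T cell markers 2 had any UMI in each library, with 2 UMIs in AC8 and 3 in WT. They were Trac and Thy1 in AC8, and Cd5 and Thy1 in WT. Natural killer cell markers had 2 UMIs in AC8 and 0 in WT, neutrophil markers 11 and 13, and red cell markers 3 and 10. Dendritic cell markers had 48 UMIs in AC8 and 30 in WT. Of 8 genes listed for antibody-secreting plasma cells, Jchain, Tnfrsf17 and Derl3 were at 0 in both. The other 5, which include genes that B cells also use, summed to 595 CPM in AC8 and 489 CPM in WT, against 272 and 258 CPM in the other cells. Among them Mzb1, a chaperone of antibody chains, had 162 UMIs in AC8 and 67 in WT, and Xbp1, a factor of the secretory pathway, 36 and 7, a fold of 2.55, and 2.2 without the cells described next. The 5 fibroblast markers outside the rule summed to 469 CPM in AC8 and 310 CPM in WT, against 24131 and 22898 CPM in the other cells, and 6 endothelial markers to 180 CPM in AC8 and 341 CPM in WT, against 3135 and 5600 CPM. The 9 macrophage markers outside the rule summed to 964 CPM in AC8 and 390 CPM in WT. In each library 8 of them were detected, without Cd163 in AC8 and without Fcgr1 in WT. No UMI of these markers was found in 84.9% of AC8 and 86.4% of WT members. Most of these UMIs sat in a few cells. In AC8, 4 members with at least 3 UMIs of Lyz2, a lysozyme of myeloid cells, held 85.8% of the library's 352 Lyz2 UMIs, 90.9% of Cd68, 91.8% of Ccl7, 96.2% of Hmox1, 91.7% of Cxcl2 and 97.5% of Tgfbi. In WT, 3 members stood apart: 2 with 36 and 18 Lyz2 UMIs, and 1 of 3649 UMIs with the cycling genes Mki67 (7 UMIs) and Top2a (6) and the pre-B cell genes Igll1 (8) and Vpreb1 (4). Without these 7 cells the same macrophage markers summed to 158 CPM in AC8 and 140 CPM in WT. Members high in other markers were kept. The highest WT member held 15 of the 30 dendritic cell marker UMIs, and the highest AC8 member 20 of the 81 endothelial marker UMIs. Where leaving out the 7 cells moved a named gene past the 2-fold limit or turned a list's median, both values are given.

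AC8 members were read more deeply than WT members. The median was 1034 UMIs and 616 genes per cell in AC8, and 878.5 UMIs and 547.5 genes in WT. Totals ran between 520 and 6781 UMIs in AC8 and between 507 and 3866 in WT. Cells under 1000 UMIs made up 43.8% of AC8 members (174 cells) and 67.1% of WT members (153 cells), which left 223 and 75 deeper cells. Within the bins the medians lay closer, at 845.5 UMIs in AC8 and 776 in WT below 1000 UMIs, and 1202 and 1211 above. Summed over members there were 450123 UMIs in AC8 and 222931 in WT. Both libraries differed in depth as a whole, with a median of 1832 UMIs over all AC8 cells and 1344 over all WT cells, and B cells were the shallowest of the classes set apart. T cells had medians of 1606 in AC8 and 1317 in WT, and macrophages 2929 and 1827. Mitochondrially encoded genes took a median of 2.66% of a member's UMIs in AC8 and 2.67% in WT.

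**Figure D1:**
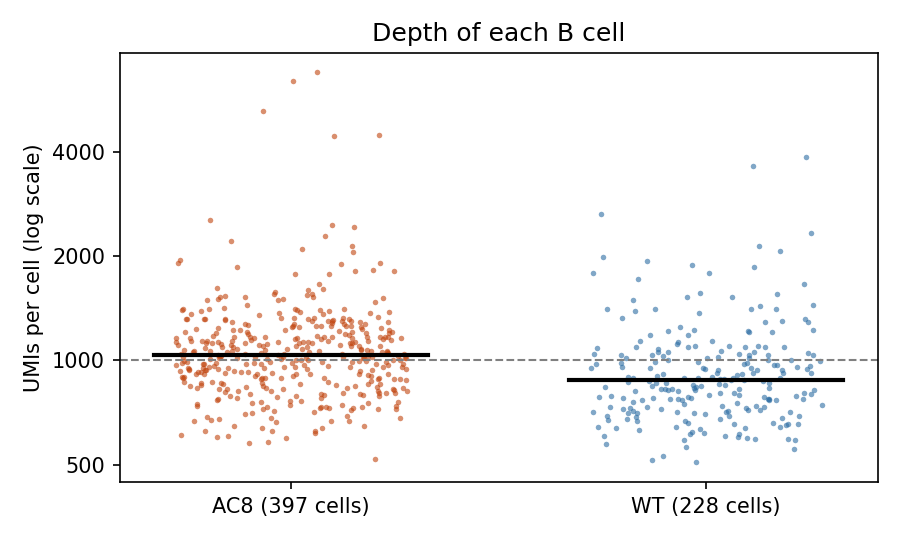
UMIs per cell on a log scale for each of the 397 AC8 and 228 WT B cells, with the median as a bar (1034 in AC8, 878.5 in WT) and the bin limit of 1000 UMIs as a dashed line. Most WT cells lie under the line, and in each library a few cells stand far above the rest, up to 6781 UMIs in AC8 and 3866 in WT.

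The rule lost cells at each step. Of 4782 AC8 and 5747 WT cells with at most 10% mitochondrial UMIs, 508 and 311 had 3 or more UMIs of the B cell genes. The Cd3 genes left 503 in AC8 and 307 in WT, the C1q genes 464 and 283, the fibroblast genes 450 and 272, and the endothelial genes the final 397 and 228. At the threshold, 66 AC8 and 48 WT members held exactly 3 UMIs of the B cell genes. Just outside it, 55 AC8 and 49 WT cells held exactly 2. Pecam1 (CD31) alone kept out 44 AC8 and 30 WT cells, of which 42 and 28 had a single Pecam1 UMI.

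B cells were a larger share of leukocytes in the AC8 library at either depth. Leukocytes were the members plus every cell with at least 3 UMIs over 8 leukocyte genes and fewer of fibroblast and of endothelial genes. B cells were 397 of 1759 leukocytes in AC8, 22.6% (20.6 to 24.6), and 228 of 1334 in WT, 17.1% (15.1 to 19.2), a difference of 5.48 points (2.60 to 8.31). Among cells under 1000 UMIs they were 174 of 336, 51.8% (46.3 to 57.2), in AC8 and 153 of 398, 38.4% (33.6 to 43.4), in WT. Among cells of 1000 or more they were 223 of 1423, 15.7% (13.8 to 17.7), in AC8 and 75 of 936, 8.01% (6.35 to 9.94), in WT. Since both minimums depend on depth, every cell was also thinned to 500 UMIs before the rule was applied. The share was then 17.8% in AC8 (222 of 1244) and 15.5% in WT (147 of 949), a difference of 2.36 points whose interval of -0.873 to 5.53 includes 0. Per T cell of a matching rule there were 4.36 B cells in AC8 and 3.35 in WT, and per macrophage 0.583 and 0.388. The sort and the mixing set how many leukocytes entered each library, so these are shares within that gate. The part of the depth gap in them was not tested beyond the thinning.

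**Figure D2:**
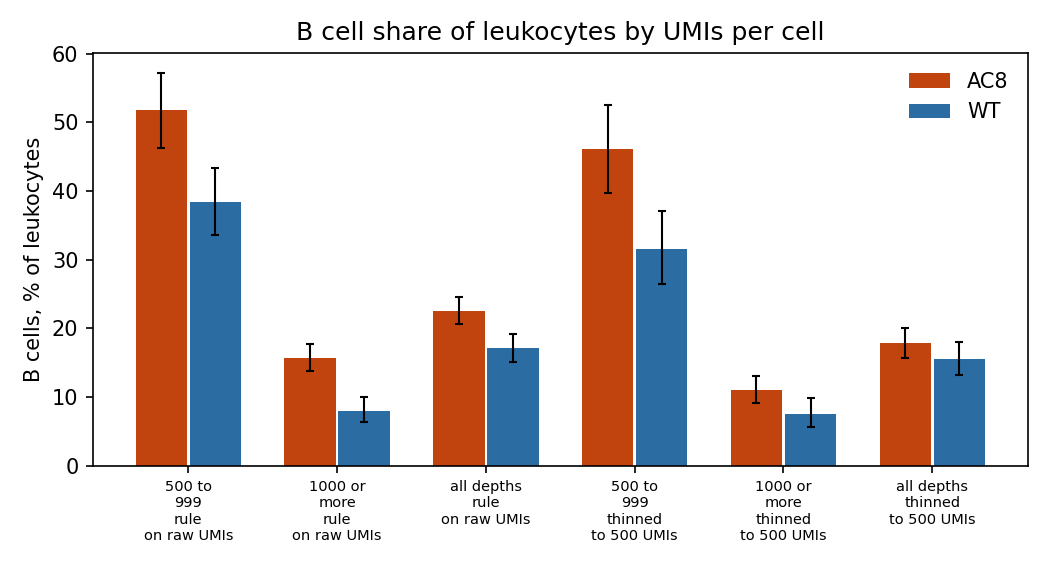
B cells as a percentage of leukocytes in AC8 and WT by UMIs per cell, with the rule applied to raw counts (left) and after every cell was thinned to 500 UMIs (right); bars are shares and error lines exact binomial 95% intervals. AC8 stands above WT in every pair, by 5.48 points over all depths on raw counts and 2.36 points after thinning.

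Few UMIs of switched antibody genes were found, and the V segments in use were many. Kappa V segments (Igkv) were found in 91.9% (88.8 to 94.4) of AC8 B cells with 4077 UMIs and in 90.8% (86.3 to 94.2) of WT B cells with 1784 UMIs. Heavy chain V segments (Ighv) were found in 72.0% of AC8 and 61.4% of WT members, and lambda V segments (Iglv) in 16.4% and 13.6%. Constant genes of switched antibodies (IgG, IgA, IgE) had 7 UMIs in 5 AC8 cells and 4 UMIs in 3 WT cells. Neither Ighm nor Ighd was detected in 108 AC8 cells (27.2%) and 43 WT cells (18.9%), so at this depth the class of those cells was not seen. A segment is called leading where it held at least 80% of a cell's UMIs of that chain. With at least 2 heavy and 3 kappa V UMIs, 105 AC8 cells had a leading segment of both and 104 pairs were distinct, and of 43 such WT cells 42 were. A pair is named by its segments alone, since the junctions are not in these counts.

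Single kappa segments led in most cells that had them. Among members with at least 3 UMIs summed over all Igkv segments, 260 of 318 in AC8 and 145 of 170 in WT had 1 leading segment. The leading segments were spread over 65 and 51 different ones. The most used were Igkv1-117 in AC8, with 16 cells (6.15%), and Igkv10-96 in WT, with 10 cells (6.90%). Of the lambda segments Iglv1 led, in 27 of 33 AC8 and 12 of 15 WT cells. Cells with at least 3 kappa and no lambda V UMIs were 285 (71.8%) of AC8 and 155 (68.0%) of WT members, and cells with at least 3 lambda and no kappa V UMIs were 20 (5.04%) and 7 (3.07%). A further 14 AC8 and 7 WT cells held at least 3 of each. V segments have near-identical copies, so the split of reads between close segments is uncertain.

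**Figure D3:**
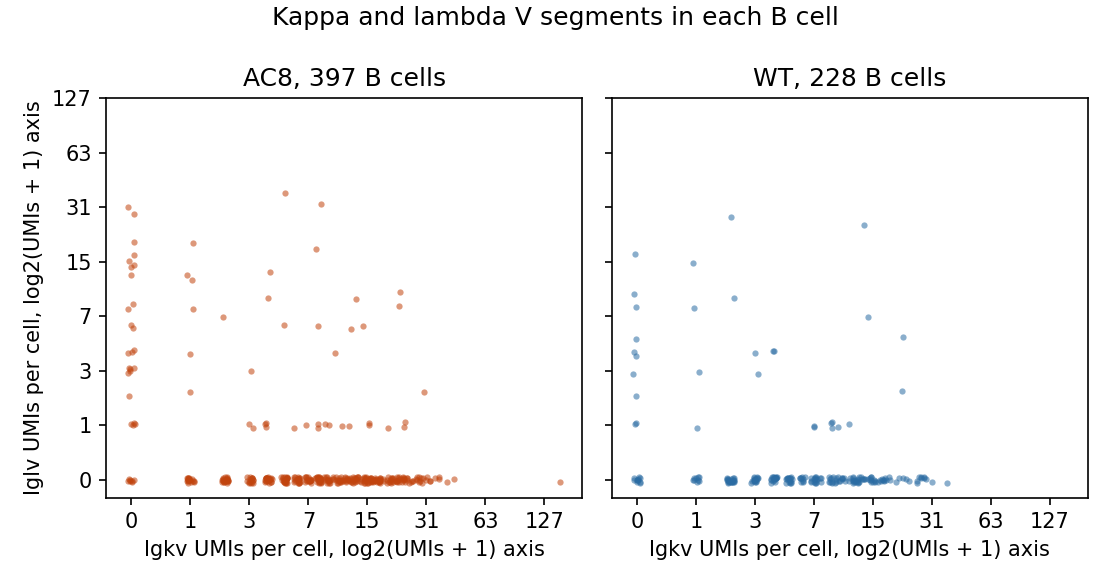
Kappa (Igkv, horizontal) against lambda (Iglv, vertical) V segment UMIs in each B cell of AC8 (left) and WT (right), on log2(UMIs + 1) axes with small random offsets; each point is 1 cell. Most cells lie along the horizontal axis (285 AC8 and 155 WT cells with at least 3 kappa and no lambda UMIs), few along the vertical axis (20 and 7), and 1 AC8 cell stands alone at 152 kappa UMIs.

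Of the constant genes, Ighm (IgM heavy chain) had 1171 CPM in AC8 and 1624 CPM in WT, a fold of 0.721 (0.630 to 0.827). It was lower in AC8 in both depth bins, at 1312 against 1628 CPM below 1000 UMIs and 1104 against 1619 CPM above. Ighd (IgD heavy chain) had 287 CPM in AC8 and 408 CPM in WT, a fold of 0.702 (0.533 to 0.929). Igkc (kappa constant region) had 1273 CPM in AC8 and 1705 CPM in WT, a fold of 0.747 (0.655 to 0.852). These 3 genes were lower in AC8, while the lambda constant genes were mixed: Iglc1 had 207 CPM in AC8 and 278 in WT, Iglc2 749 and 852, and Iglc3 673 and 659. Iglc2 and Iglc3 are near-identical copies and their split is uncertain. The V segments of the kappa and heavy chains were not lower in AC8 as a share of all UMIs. Igkv had 4077 of 450123 UMIs in AC8 and 1784 of 222931 in WT, and Ighv 712 and 323 of the same totals. Thinned to 500 UMIs, Ighm was detected in 40.8% of AC8 and 50% of WT B cells, against 7.93% and 8.18% of macrophages and 0.206% and 0.255% of fibroblasts.

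Across all genes, few stood apart. Of 3480 genes with at least 30 summed UMIs, 79 (2.27%) were past 2-fold higher in AC8 and 56 (1.61%) past 2-fold lower, on the log2 ratio of CPM with a pseudocount of 10 CPM, which understates the difference of low genes. The median log2 ratio was -0.001, and 1740 genes stood above 0. Ig V segments gave 13 of the 79 and 7 of the 56, though only 55 of them were counted, so they were called more often than other genes. Without V segments, 66 of 3425 genes were past 2-fold higher and 49 lower. Without the 7 cells that stood apart, 57 of 3358 genes (1.70%) were past 2-fold higher and 49 (1.46%) lower, and 28 of the 79 higher genes no longer were. With mitochondrial, ribosomal and antibody genes left out of the total, 78 were past 2-fold higher and 79 lower, and the median log2 ratio was -0.04. In the lower depth bin 38 of 1373 genes (2.77%) were higher and 41 (2.99%) lower, and in the upper bin 78 of 2222 (3.51%) and 69 (3.11%). Among T cells the shares were 3.09% higher and 4.10% lower, and among macrophages 1.16% and 0.542%. Of the 135 genes past 2-fold in B cells, 13 were also past 2-fold the same way in all other cells of the library. The share of all counted genes past 2-fold in those other cells is not given. The 13 therefore do not show how particular the differences were to B cells.

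The MHC class II presentation genes stood higher in AC8 B cells. Of the 18 genes listed 17 were in the files and 14 had enough UMIs, and all 14 had a log2 ratio above 0, with a median of 0.25, beside -0.001 over all genes. The differences were small: 1 of the 14, Ciita, was past 2-fold, and the intervals of H2-Ab1, H2-Ob and the 3 DM genes included 1. Uncounted were the regulators Rfx5 (7 UMIs in AC8 and 2 in WT), Rfxank (6 and 3) and Rfxap (6 and 13), and Ifi30 was not measured. In cells under 1000 UMIs 12 of 13 were higher, with a median of 0.21, and in deeper cells 14 of 14, with a median of 0.37. The count was 13 of 14 when mitochondrial, ribosomal and antibody genes were left out of the total, with H2-Ab1 then lower, and 11 of 14 when members needed 5 UMIs of the B cell genes. In macrophages of the same libraries 3 of 13 counted class II genes were higher in AC8, with a median of -0.13, and in T cells 6 of 6, with a median of 0.61. T cells had only 5.99 CPM of Ciita in AC8 and 0 in WT. Whether the class II UMIs of T cells came from RNA of other cells was not tested, nor was the difference between cell types.

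Ciita, the coactivator that switches on class II genes (chr16:10480059-10528418, plus strand, GRCm38), had 78 UMIs in 68 AC8 cells and 14 UMIs in 13 WT cells. That was 173 CPM (137 to 216) in AC8 and 62.8 CPM (34.3 to 105) in WT, a fold of 2.76 (1.55 to 5.28). By depth it had 214 CPM in AC8 against 42.0 in WT below 1000 UMIs, and 154 against 86.7 above. At 500 UMIs per cell it was detected in 9.07% (6.43 to 12.3) of AC8 and 3.07% (1.24 to 6.22) of WT B cells, and in no fibroblast of either library. Macrophages had 25.1 CPM of Ciita in AC8 and 54.4 CPM in WT, a fold of 0.461 (0.319 to 0.666).

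The peptide-binding chains differed less. Cd74, the invariant chain that fills the groove during assembly, was the most abundant class II gene in these cells, with 14118 UMIs (31365 CPM) in AC8 and 5801 UMIs (26022 CPM) in WT, a fold of 1.21 (1.17 to 1.24). The alpha chain H2-Aa had 6114 CPM in AC8 and 5679 CPM in WT, a fold of 1.08 (1.01 to 1.15), and its partner H2-Ab1 had 3317 and 3266 CPM, a fold of 1.02 (0.929 to 1.11). The beta chain H2-Eb1 had 4525 CPM in AC8 and 3835 CPM in WT, a fold of 1.18 (1.09 to 1.28). Its less abundant paralog H2-Eb2 had 122 CPM in AC8 and 67.3 CPM in WT, a fold of 1.82 (1.01 to 3.46). Macrophages had lower levels of the main chains in AC8, with folds of 0.721 for H2-Aa, 0.742 for H2-Ab1, 0.758 for H2-Eb1 and 0.806 for Cd74.

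Among the genes that load peptide, H2-Oa, a chain of the loading inhibitor DO, had 324 CPM in AC8 and 206 CPM in WT, a fold of 1.57 (1.12 to 2.24), and its partner H2-Ob had 758 and 700 CPM, a fold of 1.08 (0.893 to 1.32). The DM chains, which exchange peptide, had folds of 1.04 (H2-DMa), 1.17 (H2-DMb1) and 1.14 (H2-DMb2). Ctss, the protease cathepsin S that trims the invariant chain, had 711 CPM in AC8 and 408 CPM in WT, a fold of 1.74 (1.38 to 2.22), and 1.5 without the 7 cells. Lgmn, an endosomal protease, had a fold of 1.95, and 1.14 (0.590 to 2.31) without them. Cd83, which slows the removal of class II from the surface, had 1757 CPM in AC8 and 1301 CPM in WT, a fold of 1.35 (1.18 to 1.55). Set against the promoters, H2-Eb2 (with the X core) and H2-Oa (without it) had the larger folds among the H2- genes, while H2-Ob (with it) and H2-Aa (without it) both had 1.08.

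**Figure D4:**
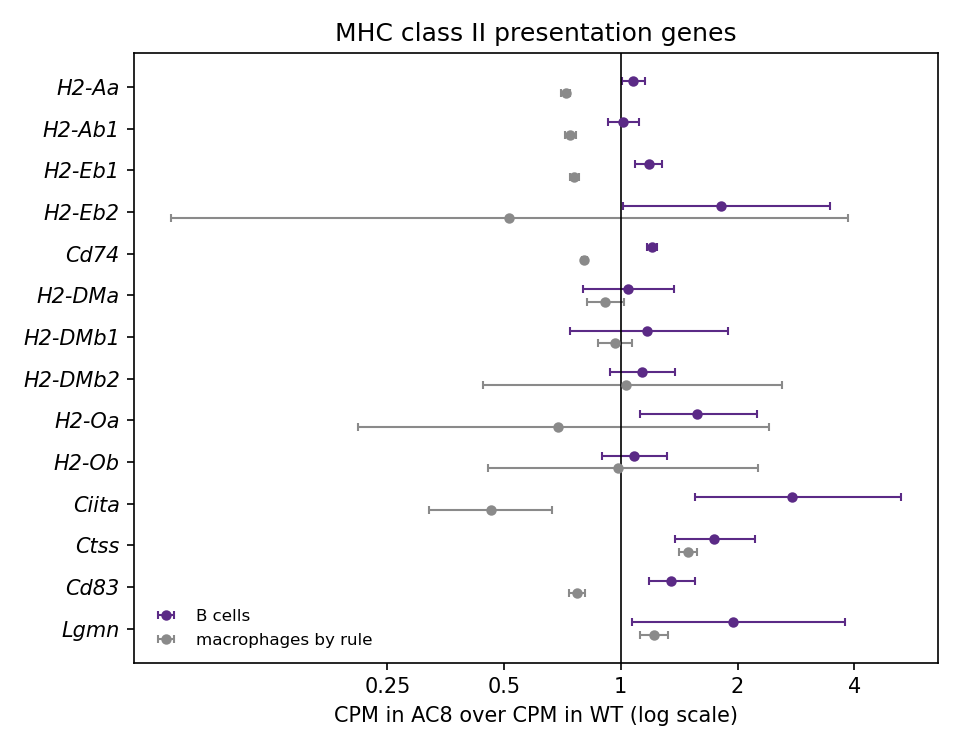
CPM in AC8 over CPM in WT for the 14 counted class II presentation genes, on a log axis, in B cells (dark) and in macrophages (grey); points are folds, lines exact 95% counting intervals, and the vertical line marks a fold of 1. The B cell points lie at or right of 1, between 1.02 for H2-Ab1 and 2.76 for Ciita, while the macrophage points of H2-Aa, H2-Ab1, H2-Eb1 and Cd74 lie left of it.

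The genes furthest apart were named by a rule: at least 100 CPM in the higher library, the same direction in both depth bins, and at least 50% of the level in other cells, which 969 genes met. That both bins point the same way is therefore set by the rule. The 12 highest took in vesicle, metabolic and signalling genes of no single pathway. Ccnb1ip1, a ubiquitin ligase that binds cyclin B1 (chr14:50789248-50807732, minus strand), had 92 UMIs in 38 AC8 cells and 10 UMIs in 8 WT cells, or 204 and 44.9 CPM, a fold of 4.56 (2.37 to 9.82). It was also higher in AC8 macrophages (fold 4.54) and T cells (fold 5.09). Vps29, a subunit of the retromer that recycles endosomal cargo, had 107 CPM in AC8 and 26.9 CPM in WT, a fold of 3.96 (1.69 to 11.3). Ech1, an enzyme of fatty acid oxidation, had 116 CPM in AC8 and 31.4 CPM in WT, a fold of 3.68 (1.66 to 9.60). Cyb561a3, a lysosomal cytochrome of the b561 family, had 162 CPM in AC8 and 53.8 CPM in WT, a fold of 3.01 (1.62 to 6.10). Ciita, described above, came next.

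Itgb7, the integrin beta 7 chain through which lymphocytes home to the gut, had 187 CPM in AC8 and 80.7 CPM in WT, a fold of 2.31 (1.38 to 4.09). In T cells it had 413 CPM in AC8 and 254 CPM in WT. The other highest genes had folds between 2.03 and 2.35: Ndufs3 (a complex I subunit), Traf4 (a signalling adaptor), Idnk (a gluconokinase), Rgs19 (a regulator of G protein signalling), Rab11b (a GTPase of recycling endosomes) and Prdx5 (a peroxiredoxin). Without the 7 cells Prdx5 had a fold of 1.74, and Rgs19 one of 2.17, under the limit on the log2 scale. Of the 12 highest genes, 10 were past 2-fold on the log2 scale. In all other cells together 11 had a ratio above 1, from 1.05 for Ciita to 2.51 for Ccnb1ip1, and Traf4 had 0.872. T cells had folds below 1 for Vps29 (0.587), Cyb561a3 (0.318), Idnk (0.707) and Prdx5 (0.477), with intervals that included 1. The other genes were higher in AC8 T cells, with intervals above 1 for Ccnb1ip1 and Itgb7 alone. Ciita rested there on 5.99 CPM in AC8 and 0 in WT.

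The 12 lowest genes were all past 2-fold. In all other cells together their ratios were below 1 but mostly nearer to it, from 0.552 for Hsph1 to 0.952 for H2ac8. T cells had folds above 1 for Rexo1 (2.33), Pik3r1 (1.46) and Rnf213 (1.14), with intervals that included 1. In T cells the others had folds below 1, with intervals below 1 for H4c4 and Ier5 alone. Macrophages had a fold above 1 for H2ac8 alone (1.09, 0.828 to 1.46). Golga4, a tether of the Golgi, had 37.8 CPM in AC8 and 144 CPM in WT, a fold of 0.263 (0.137 to 0.488), with a log2 ratio of -0.24 in the lower bin and -2.55 in the upper. Pik3r1, the regulatory subunit of PI3-kinase that relays the B cell receptor signal, had 33.3 CPM in AC8 and 103 CPM in WT, a fold of 0.323 (0.157 to 0.646). Ier5, an immediate early gene, had 233 CPM in AC8 and 552 CPM in WT, a fold of 0.423 (0.323 to 0.553), and was lower in AC8 macrophages (fold 0.498) and T cells (fold 0.554) as well. The heat shock gene Hsph1 had 46.7 CPM in AC8 and 121 CPM in WT, a fold of 0.385, and macrophages had a fold of 0.346. The RNA helicase gene Ddx3x had 62.2 CPM in AC8 and 157 CPM in WT. The histone genes H4c4 (fold 0.335) and H2ac8 (fold 0.376) moved without the 7 cells, to 0.545 (0.288 to 1.03) and 0.727 (0.430 to 1.25). Mga, Rnf213, Lyst, Mfap1b and Rexo1 had folds between 0.343 and 0.381. Mfap1b has a near-identical copy, so its reads are uncertain.

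**Figure D5:**
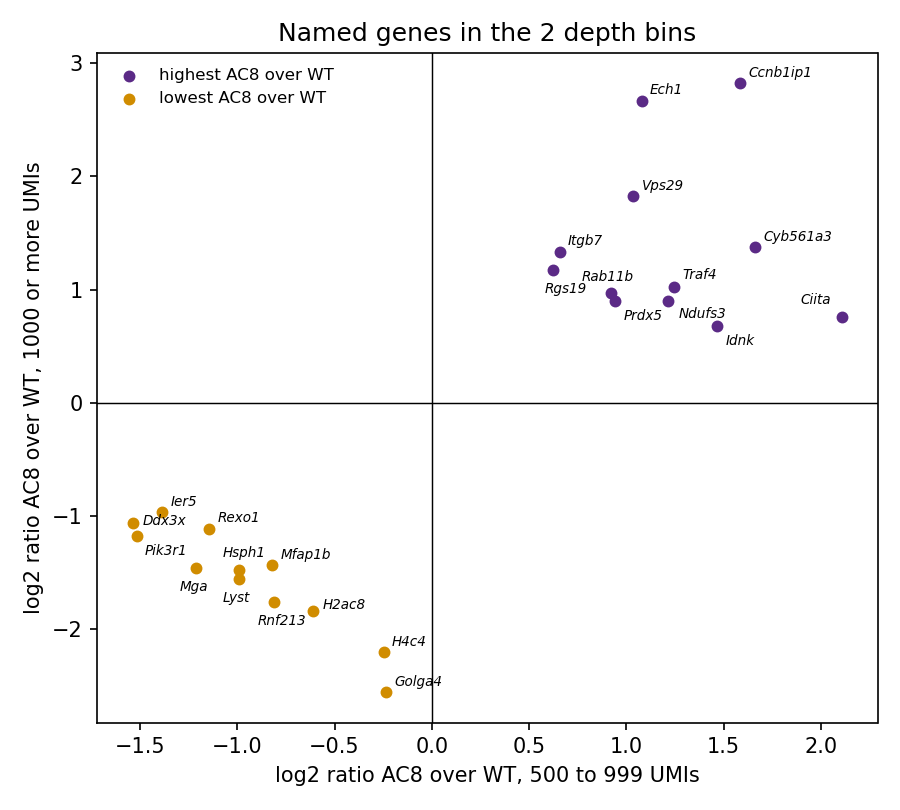
Log2 ratio of AC8 over WT (CPM with a pseudocount of 10) of the 24 named genes among B cells under 1000 UMIs (horizontal) and of 1000 or more UMIs (vertical); dark points are the 12 highest and light points the 12 lowest over all depths. The rule asked for the same sign in both bins, and within it Ciita stood further apart in the lower bin and Golga4, H4c4 and Ech1 in the upper.

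Genes of the B cell receptor pathway were split. Of 30 counted, 14 were higher and 16 lower in AC8, with a median log2 ratio of -0.08, none past 2-fold higher and Pik3r1 past 2-fold lower. Cd81, a tetraspanin of B cells, had 351 CPM in AC8 and 215 CPM in WT, a fold of 1.63 (1.17 to 2.30). The kinase gene Syk had 353 CPM in AC8 and 583 CPM in WT, a fold of 0.606 (0.477 to 0.770). Transcription factors of the B lineage gave 10 higher of 20 and a median of -0.01, which was 0.06 without the 7 cells. Ebf1 had 1293 CPM in AC8 and 1566 CPM in WT, Pax5 187 and 206 CPM, Ikzf3 307 and 435 CPM, and Tcf3 180 and 108 CPM.

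Follicular B cell genes gave 8 higher of 12, with a median of 0.13. Fcer2a, the low-affinity IgE receptor CD23 of follicular B cells, had 415 CPM in AC8 and 274 CPM in WT, a fold of 1.52 (1.13 to 2.06), while Ighd of the same list was lower. Ccr7, the receptor that leads lymphocytes to lymph nodes, had 2002 CPM in AC8 and 1709 CPM in WT, a fold of 1.17. The trafficking list gave 9 higher of 13, with Itgb7 past 2-fold and a median of 0.12. Of the receptors for the survival factor BAFF, Tnfrsf13c had 104 CPM in AC8 and 130 CPM in WT, Tnfrsf13b 142 and 121 CPM, and Tnfrsf17 was not detected. The BAFF and survival list as a whole gave 4 higher of 7, with a median of 0.00. Of the marginal zone genes 4 of 6 counted were higher, of the activation genes 8 of 13, and of the transitional genes 1 of 4. These counts differed by depth. The activation genes gave 2 higher of 7 below 1000 UMIs (median -0.15) and 7 of 9 above (median 0.38). The transitional genes gave 2 of 3 below and 1 of 3 above, and the marginal zone genes 2 of 2 and 2 of 4. Of 11 germinal centre genes only Bcl6 was counted, with 26 UMIs in AC8 and 6 in WT. Among 15 genes of B1 cells, an innate-like lineage, 4 were counted, with a median of 0.72, and -0.26 without the 7 cells.

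The immediate early and AP-1 genes, which respond within minutes to receptor signals, gave 15 higher of 27 and a median of 0.16. Several of the most abundant were higher in AC8. Junb had 3910 CPM in AC8 and 2454 CPM in WT, a fold of 1.59 (1.45 to 1.76). Nr4a1, a nuclear receptor induced by antigen receptor signals, had 2881 CPM in AC8 and 1866 CPM in WT, a fold of 1.54 (1.38 to 1.73). Zfp36, which destabilises cytokine mRNA, had 1242 CPM in AC8 and 655 CPM in WT, a fold of 1.90 (1.58 to 2.29), against 1.02 in macrophages. Others went the opposite way: the early activation marker Cd69 had 131 CPM in AC8 and 269 CPM in WT, a fold of 0.487 (0.334 to 0.710), and Ier5 was past 2-fold lower, as was Cd69 without the 7 cells. Atf3, past 2-fold higher, had a fold of 2.21, and 1.61 without the 7 cells. In macrophages 12 of 30 were higher (median -0.29) and in T cells 11 of 28 (median -0.43).

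The series title names RelA, an NF-kB subunit. Rela had 41 UMIs in AC8 and 22 in WT, or 91.1 and 98.7 CPM, a fold of 0.923, which says nothing of the activity of the protein. Of 12 NF-kB pathway genes 3 were higher, none was past 2-fold and the median was -0.09; Rel, the subunit prominent in B cells, had 604 CPM in AC8 and 848 CPM in WT, a fold of 0.713 (0.590 to 0.863). Of 30 NF-kB target genes 15 were higher, with a median of 0.01, close to all genes. Past 2-fold higher were Tnip1, an inhibitor of the pathway, with 29 UMIs in AC8 and 4 in WT, and Traf1, a signalling adaptor, with 28 and 5. Interferon response genes gave 8 higher of 15 and a median of 0.02, with Ifi203 past 2-fold lower at 127 CPM in AC8 and 296 CPM in WT. Of the Toll-like receptor genes 4 of 7 were higher: Unc93b1, which carries endosomal Toll-like receptors, had 726 CPM in AC8 and 467 CPM in WT, a fold of 1.56 (1.25 to 1.96), and Cd180, past 2-fold higher, had 40 UMIs in AC8 and 8 in WT. Of the cytokine genes 3 of 3 counted were higher, among them Ccl4 with a fold of 2.70. Without the 7 cells Ccl4 had a fold of 0.535 on too few UMIs to be counted, and the 2 genes still counted were higher.

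Genes of cyclic AMP signalling gave 10 higher of 18, none past 2-fold, with a median of 0.04. MHC class I presentation genes, set beside class II, gave 12 higher of 19 and a median of 0.05. Of them the proteasome genes Psme1 and Psmb8 had folds of 1.59 and 1.40, and B2m, the light chain of all class I molecules, 0.803. Of the cell cycle genes 3 were counted, all lower in AC8 with a median of -1.0, but without the 7 cells 2 were counted, 1 higher and 1 lower, with a median of -0.38. The cycling WT cell held all 7 Mki67 UMIs of that library.

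Some genes differed in B cells as they did elsewhere in the libraries. Ribosomal protein genes gave 32 higher of 81 counted, none past 2-fold higher and 8 past 2-fold lower, with a median of -0.14. Rpl10 had 689 CPM in AC8 and 1915 CPM in WT, a fold of 0.360, and in all other cells a ratio of 0.457. Of 13 mitochondrially encoded genes 4 were higher in B cells, with a median of -0.48 in B cells and -0.70 in macrophages. The share of UMIs from all of them had similar medians per B cell, 2.66% in AC8 and 2.67% in WT. Per macrophage the medians were 1.54% in AC8 and 1.87% in WT. Nuclear genes of oxidative phosphorylation gave 12 higher of 28 in B cells (median -0.01, and 0.02 without the 7 cells), but 26 of 28 in macrophages (median 0.42). Heat shock genes gave 7 higher of 14 (median -0.05, and 0.05 without the 7 cells), with Hspa1a, Hsph1 and Hspe1 past 2-fold lower, of which Hspa1a then had too few UMIs to be counted, and 2 higher of 17 in macrophages (median -0.56).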

How the data were processed

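The authors deposited UMI counts per gene and cell, made with Cell Ranger on mm10 per the submitters' processing notes, with no version given. Both libraries list 22441 genes, 16386 with a UMI. Cells carry running numbers in place of barcodes, so shared barcodes could not be counted; no cell had identical counts in both libraries. No doublet caller was run, and members over 3 times the median UMIs were left out as an alternative.

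UMIs were summed over B cells per library and scaled to CPM. Log2 ratios of AC8 over WT used a pseudocount of 10 CPM and at least 30 summed UMIs, and called genes are past 2-fold on that scale. Folds are plain CPM ratios with exact conditional binomial intervals, CPM have exact Poisson and shares exact Clopper-Pearson intervals, and the interval of a difference of shares squares and adds their half-widths. Intervals take UMIs as independent, which they need not be where few cells carry a gene. A count of 0 allows up to 3 counts.

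T cells had at least 2 Cd3 UMIs, macrophages at least 4 C1q UMIs and fibroblasts at least 10 UMIs of Dcn, Col1a1 and Col3a1. Named genes were the 12 highest and 12 lowest log2 ratios with at least 100 CPM in the higher library, the same sign in both depth bins and at least 50% of the other cells' level, without mitochondrial, ribosomal, hemoglobin, Y-linked and receptor segment genes, Xist and unnamed models. Constant antibody, BAFF receptor, rule and marker genes, Adcy8, Rela and Ptprc were always given, and of each list members past 2-fold or with most UMIs. Genes named beyond that were chosen after their values were seen, as were the 7 cells left out. The members and lists were chosen with earlier results of these data known. Coordinates are of GENCODE vM21 on GRCm38, which is mm10. The scripts were tested on simulated data. Tools were scipy 1.17.1, numpy 2.4.6, pandas 2.3.3 and matplotlib 3.10.9 under Python 3.11.15. Some genes are not reported here.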

Additional observations from a re-analysis of the deposited data

Results flagged for a closer look

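Among list members and named genes with at least 100 summed UMIs in B cells, 6 had folds of AC8 over WT on opposite sides of 1 in B cells and macrophages, each at least 1.2-fold and past its counting interval. Cd83 had 1757 CPM in AC8 and 1301 CPM in WT B cells, a fold of 1.35 (1.18 to 1.55), but 1874 CPM in AC8 and 2434 CPM in WT macrophages, a fold of 0.770 (0.735 to 0.807). Cd74 had folds of 1.21 in B cells and 0.806 in macrophages. H2-Q6, a class I gene whose reads may be split with close paralogs, went the other way: 153 CPM in AC8 and 296 CPM in WT B cells, a fold of 0.518 (0.364 to 0.737), but 55.8 CPM in AC8 and 39.6 CPM in WT macrophages, a fold of 1.41 (1.01 to 2.0).

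The other 3 were immediate early genes. Jund, an AP-1 subunit, had folds of 1.22 in B cells and 0.799 in macrophages, and Zfp36l1, which destabilises mRNA, 1.22 and 0.762. Atf3 had 2.21 in B cells and 0.815 in macrophages, but 1.61 (0.975 to 2.77) in B cells without the 7 cells that stood apart. In each case the difference between the cell types was not tested, since each genotype had 1 library. Ciita, described in the report, had fewer than 100 UMIs.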

How the results depend on the processing

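No paired analysis was possible because each genotype had 1 library, and no replicate could be left out. The B cell share differed by 11.8 points in cells of 1000 or more UMIs when taken over B cells, T cells and macrophages, and by 3.44 points there, and 2.36 over all depths, after thinning to 500 UMIs; 21 other values of the share moved by less than their interval. Genes past 2-fold numbered 38 higher and 41 lower below 1000 UMIs, 121 and 88 with a pseudocount of 1 CPM, 22 and 16 with 50 CPM, 423 and 318 with no minimum, 14 and 13 with at least 100 UMIs, and 41 and 36 after thinning. Higher genes made up 58.5% of calls in the main setting, 48.1% below 1000 UMIs, 47.8% (55 higher, 60 lower) with at least 5 UMIs of the B cell genes and 49.7% (78 higher, 79 lower) without mitochondrial, ribosomal and antibody genes in the total. Of 385 list medians under an alternative, 48 changed sign, in 15 of 26 lists; 37 of these were in 11 lists whose main median was within 0.2 of 0, and lay between -0.34 and 0.17. The other lists were B1, transitional (0.10 below 1000 UMIs), cell cycle (0.56 there) and marginal zone (-0.11 with at least 100 UMIs, -0.0565 without members over 3 times the median). The B1 median was -0.47 below 1000 UMIs, -0.0073 with no minimum, -0.59 with at least 100 UMIs, -0.44 thinned, -0.0502 with at least 5 B cell UMIs, -0.28 without members over 3 times the median and -0.26 without the 7 cells. The cause of these shifts was not tested. Depth limits genes under 30 UMIs and cells under 500.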

Other observations

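Ighm was also found outside B cells, where the other antibody constant genes were rare. It had a UMI in 33.9% of AC8 and 26.9% of WT macrophages and in 22% and 19.1% of T cells, against 1.03% and 0.612% of fibroblasts. Igkc had a UMI in 0.881% of AC8 and 0.511% of WT macrophages.

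Lambda constant UMIs (Iglc) were found in 68.4% of the AC8 and 65.2% of the WT B cells with at least 3 kappa and no lambda V UMIs. In the same cells Igkc was found in 68.1% of AC8 and 76.1% of WT cells.

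The AC8 B cell with 6781 UMIs held 152 Igkv UMIs, 127 of them of Igkv3-4, while the next AC8 cell held 45 and the highest WT cell 37. It had no Jchain UMI and 7 UMIs of Mzb1. Igkv3-10 had 79 UMIs in 6 AC8 cells and 0 in WT. It led in 5 of the 260 AC8 cells with 1 leading kappa segment, and in none of the 145 such WT cells. So few cells carried it that its UMIs cannot be taken as independent, and no fold is given.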
